A study of Mus musculus with 8 samples.

Results

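Mouse peritoneal macrophages were exposed to 5 µg/ml LECT2 for 48 h and compared with cells kept for the same time at 0 µg/ml, on 2 two-colour Agilent arrays of the 8 in the series. Both arrays were chosen by their titles. All cells of the series came from the mouse peritoneum and were grown in low-glucose DMEM with 20% serum. The other groups, also of 2 arrays each, are 5 µg/ml LECT2 at 3.5 h (3 h in the channel labels), and 0.5 µg/ml at 3.5 h and at 48 h, each against 0 µg/ml at its own time. The replicates came from 2 independent experiments with different mice, and strain, age and sex are not given in the sources used here. On every array the control RNA carried Cy5 and the LECT2 RNA carried Cy3, with no dye swap, so a probe's dye bias and an effect of LECT2 cannot be told apart.

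LECT2, leukocyte cell-derived chemotaxin 2, is secreted, chiefly by hepatocytes, and is known for attracting and activating leukocytes. CD209a, a C-type lectin, has been described as its receptor on macrophages. Resident peritoneal macrophages are long-lived, self-renewing cells of the serous cavity that clear dying cells, and on activation by interferons or microbial products they turn on antiviral proteins, guanylate-binding proteins, cytokines and inflammatory enzymes.

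The values are log2 ratios of LECT2 over control, so that a positive value is higher with LECT2, and each pair of values below gives replicate 1 first and replicate 2 second. A gene was called when limma's test of the mean of both arrays against 0 gave an adjusted p under 0.05, with the spread estimated from all 8 arrays. Each standard error (SE) below is the moderated one of that fit, with its spread from all 8 arrays and drawn toward that of other genes. It is not the SE of the 2 arrays alone, and n = 2 gives the number of arrays averaged. One conflict in the deposited data bears on every value. Both columns of the deposited value table for this group equalled the ratios of a scanner file recorded under another sample, within 0.01 for 100% of 39030 probes with a single spot: replicate 1 matched the file recorded under 0.5 µg/ml at 48 h replicate 2, and replicate 2 the file recorded under 5 µg/ml at 3.5 h replicate 2. The columns, which carry the sample labels, are used here, and which of the links is right could not be settled. The scanner files taken as recorded were also put through normexp and loess, another background correction and normalization. In that setting limma called 1 gene instead of 2931. The median of the guanylate-binding and immunity-related GTPases was 2.02 in place of 3.65, and that of the glycolysis list 0.09 in place of 1.25. The matched files with the same processing gave 3279 genes and medians of 3.41 and 1.19. Under the recorded link Il17a was at 0.92, Cd209a at -1.49 (-2.95 with the matched files so processed) and Ifit1 at 2.96, each with the sign it has below. Of the 160 called genes named in the text, 0 were called under the recorded link and 12 took the opposite sign.

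Of 26123 genes tested, 2931 (11.2%) were called: 1123 (4.3%) higher and 1808 (6.92%) lower with LECT2. All 2931 had the same sign on both arrays, and by the measured ratios 264 were at least 4-fold higher and 261 at least 4-fold lower. Over all genes tested the arrays correlated at r = 0.62, a correlation across genes, which are not independent replicates, and 68.7% of genes had the same sign on both. The median of all genes was -0.01. It fell to -0.24 when background-corrected arrays were only centred on their median, a setting (median centring below) that called 1810 genes (6.93%) higher and 6812 (26.1%) lower, 21% of calls higher against 38.3%. List counts under it are to be read against those shares, and list counts in the deposited values against 4.3% and 6.92%. The calls rest on both arrays: without replicate 1 limma called 14 genes and without replicate 2 it called 57. In both channels, the 9 macrophage markers measured were well above background on both arrays and none of the 9 was called by limma (3 lower under median centring). Itgam (the CD11b integrin chain) had control signals of 195582 and 215300, and Adgre1 (F4/80) 29520 and 49277.

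**Figure D1:**
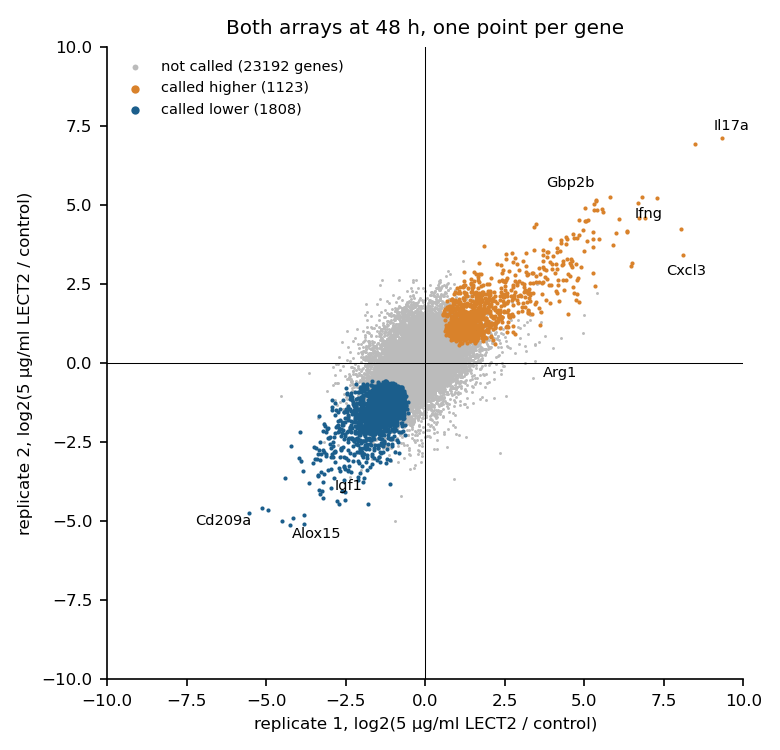
Log2 ratio of 5 µg/ml LECT2 over control at 48 h on the array of replicate 1 (x axis) against that of replicate 2 (y axis), one point per gene, with the 1123 genes called higher in orange and the 1808 called lower in blue. The called genes lie in the 2 quadrants where both arrays have the same sign, and Arg1 lies far right near the zero line, high on replicate 1 alone.

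The cytokine gene Il17a rose on both arrays. Its signal with LECT2 was 3027 and 6327, against 4.69 and 45.6 in the control, where it was well above background on replicate 2 only. The deposited log2 ratios were 9.33 and 7.12 (adjusted p = 0.00154), of which the first has a control signal not above background, so that its size was not measured. With normexp and loess, another background correction and normalization, the mean was 5.32. Iltifb, a near-identical copy of the interleukin gene Il22, was not above background in either control and rose at least 20.1-fold; its probe may also bind Il22 RNA, and Il22's own probe gave 1.67 and 2.20 (adjusted p = 0.0284). Ifng, the gene of interferon-gamma, the macrophage-activating product of T and NK cells, rose at least 7.47-fold from controls below background, with LECT2 signals of 782 and 1272. For these 3 genes both LECT2 channels were above background, and the controls were near or below it. Markers of T and NK cells were measured beside them: all 20 tested were above background in a control channel, 2 were called higher (Cd3g at 1.50 and 1.10, and Gzma at 1.32 and 1.10), 2 lower (Cd28 and Klrb1c), and the list's median was 0.47 (0.03 under median centring). Their summed signal was 25873 and 27303 with LECT2 against 22215 and 19247 in the control, and their part in the cytokine values was not tested. In bulk RNA, more cells of a type and more RNA per cell cannot be told apart.

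Tarm1, an activating receptor of myeloid cells, gave 8.03 and 4.25, and AA467197, which encodes a small mitochondrial protein, 7.28 and 5.24; both were well above background in the control on replicate 2 only, and with normexp and loess their means were 3.25 and 4.50. Cxcl3, a neutrophil-attracting chemokine, gave 8.10 and 3.43 and so differed more between the arrays than any other of the 15 largest rises. The Ly6 family members Ly6i and Ly6f, small surface proteins tethered by a lipid anchor, rose by 5.76 and 5.26 on average, and near-identical Ly6 genes may share signal. Acsl1, which activates long-chain fatty acids, was bright in both channels and rose on both arrays, at 5.41 and 4.86, mean 5.13 ± 0.48 (SE, n = 2), adjusted p = 0.00318. Its signal went from 2442 and 4969 in the control to 103537 and 144126 with LECT2.

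On the other side, Cd209a, the lectin described as the LECT2 receptor, fell on both arrays. Its control signals of 1695 and 2269 stood against 47.8 and 93.9 with LECT2, where it was well above background on replicate 2 only. The deposited log2 ratios were -5.15 and -4.60 (adjusted p = 0.00318), and with normexp and loess the mean was a smaller -2.95. Slc9a9, an endosomal sodium-proton exchanger, was below background in both LECT2 channels and fell at least 6.01-fold. Vsig4, the complement receptor of tissue-resident macrophages, fell on both arrays at -4.16 and -4.89 (adjusted p = 0.00517), and so did Cbr2, a carbonyl reductase, at -4.25 and -5.11, and Tmem176a, a membrane protein of myeloid cells, at -3.35 and -4.02. Igf1, a growth factor that macrophages secrete, fell from control signals of 11719 and 12224 to 1251 and 908, with log2 ratios of -3.23 and -3.75 and an adjusted p of 0.00318. For all 6 genes, both control signals lay above both LECT2 signals.

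**Figure D2:**
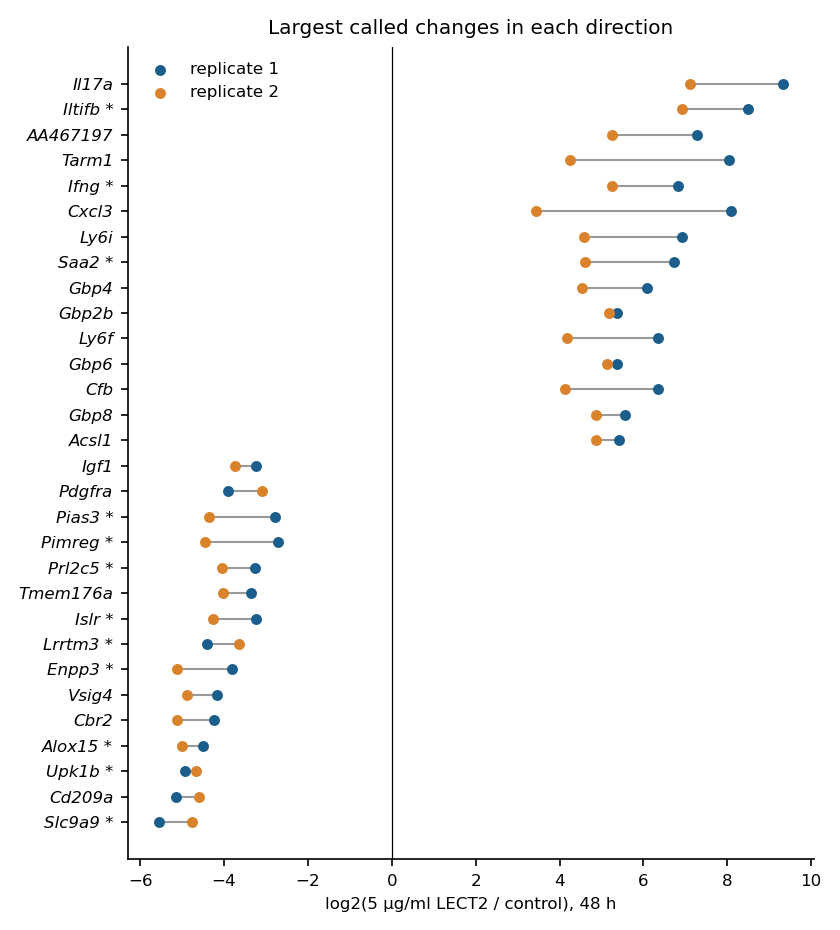
The 15 largest called rises and the 15 largest called falls by the deposited ratios that passed the naming rule, as log2 ratios of 5 µg/ml LECT2 over control on the array of replicate 1 (blue) and replicate 2 (orange). An asterisk marks a gene below background in 1 of the channels on both arrays, whose fold is only bounded. The naming rule required the same sign on both arrays, which all 2931 called genes had, so the shared side of 0 is no separate result.

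Most of the listed antiviral genes that interferons induce rose. Of 35 antiviral interferon-stimulated genes tested, 27 (77.1%) were called higher and none of the 35 lower, against 4.3% of all genes higher, and the list's median was 1.83 against -0.01 over all genes (2.15 on replicate 1 and 1.49 on replicate 2; 1.04 under median centring, with 25 higher). The IFIT proteins, which bind foreign RNA, led the list. Ifit1 had signals of 6814 and 7537 with LECT2 and 212 and 336 in the control, with log2 ratios of 5.01 and 4.49 and a mean of 4.75 ± 0.24 (SE, n = 2), adjusted p = 0.00141. Both LECT2 signals lay far above both controls. Ifit2 gave 4.65 and 4.07, Ifit3 4.47 and 3.91 and Rsad2, which encodes viperin, 4.14 and 3.51. Of its transcription factors, Irf7 at 4.43 and 2.62 and Stat2 at 2.20 and 1.69 were called, and Irf9 was not called at 0.71 and -0.09. Lower in the order were Isg15, the ubiquitin-like modifier, at 1.29 and 1.25, and Bst2, which tethers virions, at 0.59 and 0.37 and not called (adjusted p = 0.503). Ifnb1, the gene of interferon-beta, was above background in 1 control channel only and was not called at -1.47 and 0.22.

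The guanylate-binding proteins and immunity-related GTPases, which attack vacuoles that hold microbes, gave the largest list median. All 18 tested were called higher, with a median of 3.65 (3.87 and 3.54 on the arrays) and a range of 1.46 to 5.31 over genes. Gbp2b rose from control signals of 202 and 255 to 8303 and 9208, at 5.36 and 5.17, mean 5.27 ± 0.42 (SE, n = 2), adjusted p = 0.00228. Gbp4 gave 6.08 and 4.54, Gbp6 5.37 and 5.13 and Gbp8 5.56 and 4.86, the last well above background in the control on replicate 2 only (3.18 with normexp and loess). Of the immunity-related GTPases, Irgm1 gave 2.89 and 3.12, Igtp 3.92 and 3.20 and Tgtp2 4.84 and 4.07, and the smallest rise was that of Iigp1 at 0.99 and 1.94. Paralogs here are near-identical (Tgtp1 and Tgtp2, Gbp6 and Gbp10), so that probes may not separate them. The count of calls did not fall with loess, at 18 of 18, and was 17 of 18 with median centring.

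Promoters of many of these genes share a short sequence. The letters GAAA, any 2 bases and GAAA again, the core of the interferon-stimulated response element, were searched on both strands of the 300-base RefSeq promoter windows (250 bases before to 50 after the gene's start, build GRCm38.p6). They occurred in 3.99% of 27025 genes with a window and in 3.85% of 13287 genes tested. The share was 10.7% of 618 genes called higher, which include members of both lists, and 3.16% of 1013 called lower. In the antiviral list 15 of 28 genes held a match (53.6%), and in the GTPase list 10 of 11 (90.9%). The antiviral list is of known interferon-stimulated genes, and both lists were chosen with earlier results of these data known. Their shares therefore describe the lists and are no separate support for the calls. Stretches of 250 bases before the start are shown for Ifit1 (chr19:34640639-34640888, plus strand), Gbp2 (chr3:142620413-142620662, plus strand) and Irgm1 (chr11:48871421-48871670, minus strand), a member of each family among the called genes. They are written 5′ to 3′ on the gene's strand with the matches in capitals, in the reverse orientation (TTTC, any 2 bases, TTTC) in Ifit1 and Gbp2.
Ifit1: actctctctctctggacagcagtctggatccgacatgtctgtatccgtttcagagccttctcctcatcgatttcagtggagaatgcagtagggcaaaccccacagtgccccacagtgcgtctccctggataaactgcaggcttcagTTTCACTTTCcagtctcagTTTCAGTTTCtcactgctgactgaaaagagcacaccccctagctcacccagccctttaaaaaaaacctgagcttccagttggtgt
Gbp2: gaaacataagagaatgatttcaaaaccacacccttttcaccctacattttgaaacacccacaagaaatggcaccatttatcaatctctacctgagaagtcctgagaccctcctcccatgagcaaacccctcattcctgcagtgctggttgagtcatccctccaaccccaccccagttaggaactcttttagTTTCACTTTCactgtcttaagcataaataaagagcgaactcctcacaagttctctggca
Irgm1: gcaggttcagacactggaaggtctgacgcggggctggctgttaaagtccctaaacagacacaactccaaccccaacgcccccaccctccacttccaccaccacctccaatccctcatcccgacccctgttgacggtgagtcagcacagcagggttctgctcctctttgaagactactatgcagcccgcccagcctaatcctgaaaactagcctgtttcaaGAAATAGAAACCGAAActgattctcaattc
Ifit1 has 2 matches, which begin 104 and 85 bases before the start. Gbp2 has 1, which begins 59 bases before the start, and Irgm1 has 2 that overlap, beginning 30 and 24 bases before it. A match of these letters is a description of the window and does not show that a factor bound there.

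Genes of antigen processing for MHC class I were also called higher. Of 20 genes tested, 11 (55%) were called higher and 1 lower, against 4.3% and 6.92% of all genes, with a median of 1.27. Under median centring 6 were higher and 1 lower, with a median of 0.52. They include the peptide transporter subunit Tap1 at 2.51 and 2.31, the immunoproteasome subunits Psmb8 at 2.76 and 2.07 and Psmb9 at 1.46 and 0.90, the aminopeptidase Erap1 at 2.31 and 2.58, and Nlrc5, the transactivator of class I genes, at 2.23 and 1.33. The chains of the class I molecule itself were high on replicate 1 only and were not called: H2-K1 gave 1.34 and -0.00, H2-D1 1.08 and -0.12 and B2m 1.78 and 0.16. The member called lower was Calr, a chaperone of the endoplasmic reticulum, at -1.42 and -1.60. For class II, 1 of 13 genes (7.69%) was called higher and 1 (7.69%) lower, with a median of 0.10. Under median centring the class II median was -0.59, with 3 lower. H2-Oa gave 3.23 and 1.69 and the lysosomal reductase Ifi30 -1.22 and -1.11, while the class II chain H2-Ab1 gave 0.38 and -0.05 (adjusted p = 0.79).

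Among 29 cytokines tested, 10 (34.5%) were called higher and 3 (10.3%) lower, with a median of 0.92 (0.57 under median centring, with 13 higher and 4 lower). Il1b, the fever-inducing interleukin, had signals of 29442 and 36035 with LECT2 against 650 and 2377 in the control, and log2 ratios of 5.48 and 3.93, mean 4.70 ± 0.46 (SE, n = 2), adjusted p = 0.00332. Il6, which drives the acute phase, gave 3.75 and 2.73 (adjusted p = 0.0088), and Inhba, the subunit of activin A, gave 4.47 and 2.83 (adjusted p = 0.0301). Both groups of signals were apart for Il1b, with no overlap between LECT2 and control. Il12a, a subunit of interleukin-12, was below background in both controls and rose at least 3.82-fold, and Il18 and the costimulatory ligand Tnfsf9 rose by 1.88 and 2.65. Tnf was not called: its signal with LECT2 was 1758 and 1740 against 850 and 1808 in the control, with log2 ratios of 1.05 and -0.06 and an adjusted p of 0.399. Lower were Csf1, the growth factor of macrophages, at -1.58 and -1.71, Tgfb1 at -1.10 and -1.20, and Il19, below background with LECT2, which fell at least 1.54-fold.

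Of 24 chemokines, 6 (25%) were called higher and 1 (4.17%) lower, against 4.3% and 6.92% of all genes. Under median centring 5 were higher and 4 lower, against 6.93% and 26.1% of all genes. The list's median was 1.21 on replicate 1 but -0.31 on replicate 2. Ccl5, which attracts T cells, had control signals of 3294 and 4734 and LECT2 signals of 102016 and 86782, with log2 ratios of 4.95 and 4.20 and a mean of 4.57 ± 0.29 (SE, n = 2), adjusted p = 0.00154. Cxcl10, an interferon-induced attractant of activated T cells, gave 4.54 and 2.76, Cxcl13, the B-cell attractant of body cavities, 5.27 and 2.84, and Cxcl16 2.04 and 2.22. The monocyte chemokines Ccl2 and Ccl7 were not called and had opposite signs on the arrays, at 0.88 and -0.57 and at 1.81 and -0.36, and so was the neutrophil chemokine Cxcl1 at 1.27 and -0.88. Cxcl12, a homeostatic chemokine, was lower, at a mean of -1.21 ± 0.30 (SE, n = 2), adjusted p = 0.0417, and its receptor Cxcr4 was lower as well, at -1.50 and -1.27. Among 19 chemoattractant receptors, 3 (15.8%) were called higher and 4 (21.1%) lower (3 and 7 under median centring). Cx3cr1, the fractalkine receptor, fell at -2.91 and -2.49 (adjusted p = 0.00483); its LECT2 signal was well above background on replicate 2 only, and the mean was -1.11 with normexp and loess. C3ar1, the receptor of the complement fragment C3a, fell at -1.64 and -2.14. Fpr2, the formyl peptide receptor, rose at 6.46 and 3.07, Ccrl2 at 1.99 and 1.77 and the lymph-node homing receptor Ccr7 at 1.29 and 1.26.

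**Figure D3:**
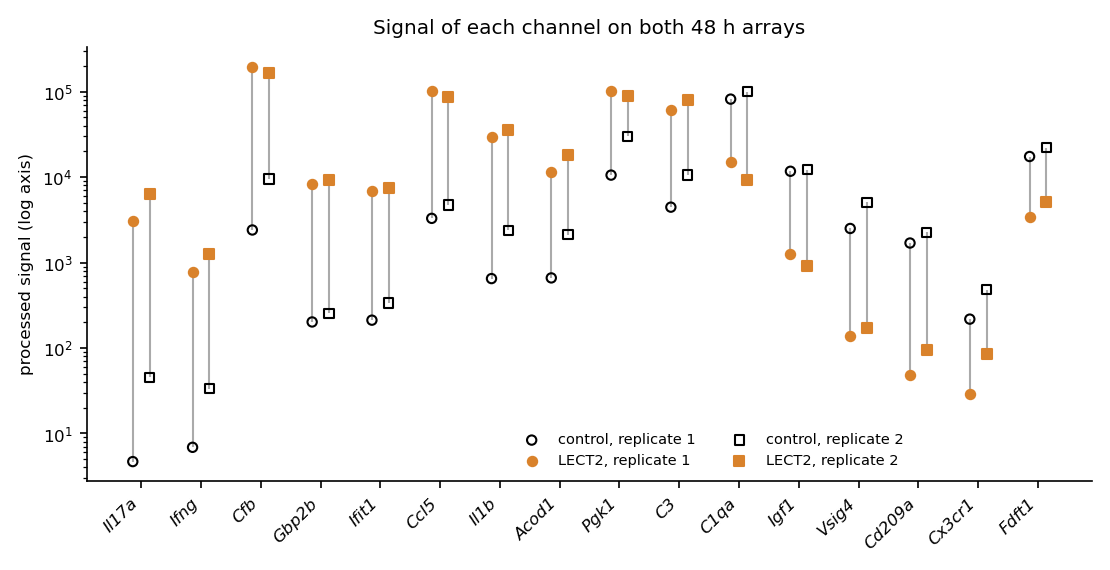
Processed fluorescence signal (log axis) of 16 genes in the control channel (open) and the LECT2 channel (orange), for replicate 1 (circles) and replicate 2 (squares), with a line joining the channels of an array. From Il17a to C3 both LECT2 signals lie above both controls, from C1qa to Fdft1 both lie below, and levels of different genes cannot be compared because each probe has its own brightness.

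Of 25 NF-kB target and feedback genes, 10 (40%) were called higher and none of the 25 lower, with a median of 0.92, which was 0.20 with 6 higher and 3 lower under median centring. Traf1, a signalling adaptor, gave 3.70 and 3.23 (adjusted p = 0.00207), Malt1, a protease of the pathway, 2.50 and 2.57, and Icam1, the adhesion molecule, 2.08 and 1.81. Nfkbia, the inhibitor IkB-alpha, gave 1.97 and 1.27, while Nfkbiz was not called at 0.60 and -0.08. Inflammasome genes were called higher in 8 of 19 cases (42.1%), with a median of 0.84 that was 0.07 under median centring, with 5 higher: Mefv, which encodes pyrin, gave 2.48 and 1.61 and the sensor component Nlrc4 1.80 and 0.93, and Casp1 was not called at 0.92 and 0.67. Of 21 Toll-like receptors and adaptors, 2 (9.52%) were called higher and 2 (9.52%) lower, against 4.3% and 6.92% of all genes. Higher were Tlr2 at 1.79 and 1.00 and Tlr4 at 1.60 and 1.60. Lower were Tlr13 at -1.14 and -1.46 and the trafficking factor Unc93b1 at -1.24 and -1.88. Under median centring 7 were lower, against 26.1% of all genes, and none of the 21 higher.

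Of 11 enzymes and transporters of arginine, nitric oxide and itaconate, 4 were called higher and 1 lower, with a median of 1.32. The medians on the arrays were 1.11 and 0.57, and under median centring the median was 0.58 with 4 higher and 3 lower. Nos2, the inducible nitric oxide synthase, gave 1.48 and 1.44, mean 1.46 ± 0.28 (SE, n = 2), adjusted p = 0.0216. Acod1, which makes itaconate, gave larger rises of 4.11 and 3.12, with signals of 11471 and 18408 against 662 and 2119. Ass1, which regenerates arginine, gave 2.30 and 1.35, and the arginine transporter Slc7a2 0.93 and 2.26. Arg1, which competes for arginine, was high on replicate 1 only, at 3.45 and 0.07, and was not called (adjusted p = 0.342). Of 16 genes of prostaglandin and leukotriene synthesis, 3 (18.8%) rose and 5 (31.2%) fell (2 and 10 under median centring). Ptgs2, the inducible cyclooxygenase, gave 3.15 and 2.88 (adjusted p = 0.0105), the phospholipase Pla2g4a 2.13 and 2.07 and the prostaglandin E synthase Ptges 1.04 and 1.00. Alox15, the lipoxygenase of resident peritoneal macrophages, was below background in both LECT2 channels and fell at least 7.67-fold from control signals of 1893 and 2037. The prostaglandin D synthase Hpgds fell at -2.73 and -2.17 and the thromboxane synthase Tbxas1 at -1.13 and -1.63.

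Acute-phase and antimicrobial proteins were called higher in 9 of 18 cases (50%) and lower in none of the 18, with a median of 1.38 (0.81 under median centring, with 9 higher and 2 lower). Saa2, a serum amyloid A gene, was below background in both controls and rose at least 6.53-fold, and Saa3, the form that macrophages make, gave 4.84 and 1.94; Saa1 and Saa2 are near-identical. The iron-siderophore binder Lcn2 gave 4.57 and 3.09 (adjusted p = 0.0052) and Cp, ceruloplasmin, 3.25 and 2.23. The calprotectin subunit S100a8 gave 3.19 and 2.78 but its partner S100a9 -0.53 and -0.26, above background on 1 array in each channel. Of 13 neutrophil and eosinophil markers none was called by limma, and their summed signal was 52143 and 87010 with LECT2 against 43807 and 47782 in the control; their part in the values of this list was not tested.

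Of 23 complement genes 6 (26.1%) rose and 7 (30.4%) fell (5 and 11 under median centring). Cfb, factor B of the alternative pathway, was among the brightest, with LECT2 signals of 195936 and 167173 against 2408 and 9474, at 6.35 and 4.14, mean 5.24 ± 0.57 (SE, n = 2), adjusted p = 0.00491. C3, the central component, gave 3.79 and 2.94 (adjusted p = 0.00504), and the proteases of the classical pathway C1ra, C1s1 and C2 gave 2.91 and 2.11, 1.49 and 1.84, and 2.02 and 1.13. The recognition molecule of that pathway went the other way: C1qa fell from control signals of 81900 and 99971 to 15135 and 9339, at -2.44 and -3.42, mean -2.93 ± 0.26 (SE, n = 2), adjusted p = 0.00318. C1qb gave -2.52 and -4.09 and C1qc -2.42 and -3.39. All 3 chains of C1q were thus lower on both arrays. Itgax, the chain of complement receptor CD11c, fell at -3.20 and -2.82, and Itgam, its CD11b counterpart, was not called at -0.19 and -0.23.

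Of 25 genes of resident macrophage identity, 6 (24%) were called lower and 3 (12%) higher, against 6.92% and 4.3% of all genes. The list's median was -0.65 (-1.12 under median centring, with 15 lower and 2 higher). Gata6, the transcription factor that defines large peritoneal macrophages, gave -1.41 and -1.28, mean -1.35 ± 0.21 (SE, n = 2), adjusted p = 0.0124. Maf, a factor that restrains self-renewal, gave -1.15 and -1.59, and the tetraspanin Cd9 -1.61 and -1.69. The phosphatidylserine receptor Timd4 was not called at -0.78 and -0.92 (adjusted p = 0.0553), and neither was Icam2 at -0.30 and -0.90. Among the members called higher were Prg4, lubricin, at 3.37 and 2.83 and Cxcl13, given above. Receptors for scavenging and dead cells were lower in 6 of 19 cases (31.6%) and higher in 1, or 12 and 1 under median centring. The mannose receptor Mrc1 gave -1.40 and -2.26, Cd36 -2.67 and -1.79 and the bridging protein Gas6 -1.49 and -1.04, while Marco, a scavenger receptor for bacteria, rose at 4.48 and 1.55. Cd5l, a secreted scavenger protein, differed between arrays at -4.54 and -1.04 and was not called.

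Of the C-type lectins at the Cd209 locus, 4 of 7 members were tested. Besides Cd209a, Cd209b fell, at least 3.46-fold because both LECT2 channels were below background, and Cd209d and Cd209f were not called, at 0.62 and 0.93 and at 0.25 and 0.82. Among the Dectin and Mincle lectins, 3 of 13 were higher: Clec4e, the Mincle receptor of fungal and mycobacterial lipids, gave 3.45 and 1.87, Clec5a 1.67 and 1.56 and the oxidised-LDL receptor Olr1 1.28 and 1.34. The galactose lectin Clec10a, counted with alternative activation, fell at least 1.73-fold. In that list 3 of 21 (14.3%) were higher and 3 (14.3%) lower (1 and 6 under median centring). Besides Igf1, Mrc1 and Clec10a it held Chil3 at 0.33 and -0.03 and Retnla below background in both channels.

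Costimulatory and checkpoint genes were called in both directions, 5 (23.8%) higher and 5 (23.8%) lower of 21 (8 and 8 under median centring). Cd274, which encodes PD-L1, gave 2.83 and 2.24 (adjusted p = 0.00825), Pdcd1lg2, which encodes PD-L2, 1.81 and 1.17, and Cd40 2.06 and 1.20. The checkpoint Vsir, also called VISTA, fell at -2.41 and -2.38 (adjusted p = 0.00329) and Cd276, a further ligand of the B7 family, at -1.81 and -1.41. The B7 ligands Cd80 and Cd86 were not called, at -0.86 and -0.40 and at 0.55 and 0.24. Of 14 dendritic cell markers 2 were called higher, the lipid-presenting Cd1d1 at 4.42 and 3.76 and Ccr7, and 3 lower, Cd209a, Itgax and the actin bundler Fscn1; their part in the results on lectins and costimulation was not tested.

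Of 24 genes of cholesterol synthesis and uptake, 8 (33.3%) were called lower, against 6.92% of all genes, and none of the 24 higher, with a median of -0.89. Under median centring 19 were lower, with a median of -1.29. Fdft1, squalene synthase, fell from control signals of 17440 and 22170 to 3412 and 5136, at -2.35 and -2.11, mean -2.23 ± 0.24 (SE, n = 2), adjusted p = 0.00491. The regulators Srebf2 and Insig1 gave -1.42 and -1.88, and -2.05 and -1.19. Of 26 genes of efflux, lipid uptake and storage, 6 were lower and none of the 26 higher (13 lower under median centring, and 1 higher with loess), among them the lipoprotein lipase gene Lpl at -2.23 and -2.46, Lipa, which frees cholesterol in the lysosome, at -2.05 and -1.55, and the sterol hydroxylase Cyp27a1 at -2.11 and -2.48. The exporter Abca1 was not called at 1.92 and 0.46. Of 23 lysosomal genes, 7 (30.4%) were lower and 1 higher (16 lower and none of the 23 higher under median centring): the protease Ctsd gave -1.70 and -2.23, the sphingolipid activator precursor Psap -1.83 and -2.23 and Tfeb, the transcription factor of lysosome genes, -2.49 and -1.51.

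Glycolysis and hypoxia-response genes were called higher in 11 of 25 cases (44%) and lower in none of the 25, with a median of 1.25 (1.64 and 0.99 on the arrays; 0.42 under median centring, with 8 higher and 1 lower). The responses held the glucose transporter Slc2a1 at 1.88 and 1.21, the first enzyme Hk2 at 1.79 and 1.54, the activator Pfkfb3 at 2.20 and 1.25, and Pgk1 at 3.26 and 1.58, with LECT2 signals of 101170 and 89969 against 10566 and 30170. The hypoxia targets Bnip3, a mitophagy receptor, and Egln3, an oxygen-sensing hydroxylase, gave 3.82 and 2.66, and 3.39 and 2.21. Gapdh, Eno1 and Aldoa had opposite signs on the arrays and were not called; Gapdh gave 1.14 and -0.79. Hif1a, the oxygen-regulated factor, was not called at 2.42 and 1.29 (adjusted p = 0.119). The letters ACGTG, the core of the hypoxia response element, occurred on either strand in the promoter windows of 17 of 24 genes of the list (70.8%). The share was 21.8% of all 27025 genes, 26.2% of 13287 genes tested, 23.1% of the 618 called higher and 26.5% of 1013 called lower. Genes called higher thus held the letters less often than genes tested. The list was chosen as one of hypoxia-response genes, so its share is no separate support for the calls. The 250 bases before the start are shown for Pgk1 (chrX:106186850-106187099, plus strand) and Bnip3 (chr7:138909507-138909756, minus strand), which were both called higher, with the matches in capitals.
Pgk1: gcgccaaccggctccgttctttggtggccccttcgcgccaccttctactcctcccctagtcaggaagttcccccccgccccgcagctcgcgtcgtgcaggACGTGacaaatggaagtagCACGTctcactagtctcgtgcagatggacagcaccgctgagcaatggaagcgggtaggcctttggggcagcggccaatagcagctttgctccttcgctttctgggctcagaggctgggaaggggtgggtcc
Bnip3: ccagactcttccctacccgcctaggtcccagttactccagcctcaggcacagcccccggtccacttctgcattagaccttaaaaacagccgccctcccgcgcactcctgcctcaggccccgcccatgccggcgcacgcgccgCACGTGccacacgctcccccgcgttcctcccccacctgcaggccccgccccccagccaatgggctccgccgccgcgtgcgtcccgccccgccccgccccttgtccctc
Pgk1 has a match on each strand, beginning 150 and 131 bases before the start. In Bnip3 the matches on the strands overlap by all but 1 base, and the first begins 108 bases before the start. These letters are short, and a match does not show that a factor bound there.

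Of 36 cell-cycle and DNA-replication genes, 12 (33.3%) were called lower, against 6.92% of all genes, and 1 higher, with a median of -0.92. Under median centring 24 were lower and 1 higher, with a median of -1.05. Cenpa, the centromere histone, gave -3.27 and -2.87, mean -3.07 ± 0.24 (SE, n = 2), adjusted p = 0.00228. The replicative helicase subunit Mcm5 gave -1.85 and -1.98, the kinase Cdk1 -1.30 and -2.01 and Ccnd1, cyclin D1, -1.40 and -2.52. Mki67, the proliferation antigen, went the other way at 2.43 and 2.62, mean 2.52 ± 0.37 (SE, n = 2), adjusted p = 0.0109, and was the only member of the 36 called higher. Pcna was not called at -0.24 and -0.41.

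Some genes known from fibroblasts and mesothelium were called lower. Pdgfra, a receptor chain for platelet-derived growth factor on fibroblasts, fell from control signals of 1216 and 2075 to 89.1 and 238, at -3.91 and -3.10. Upk1b, a uroplakin made by mesothelium, was below background in both LECT2 channels and fell at least 3.68-fold, and Islr, a secreted protein of stromal cells, at least 3.19-fold. Of 18 markers of mesothelium and fibroblasts 4 were called lower, Wt1 at -1.65 and -1.71, Pdgfra, Bnc1 and Gpm6a (0.06 with median centring), and none of the 18 higher, with a median of -0.76 (8 lower and 1 higher under median centring). The summed signal of the list was 56834 and 81429 with LECT2 against 76764 and 180380 in the control, while the collagen genes Col1a1 and Col3a1 were not called, at -0.41 and -1.06 and at -0.72 and -0.79. Of 11 B-cell markers none was called by limma, and of 9 mast-cell markers Gata2 was called lower. The part of these cells in other results was not tested.

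**Figure D4:**
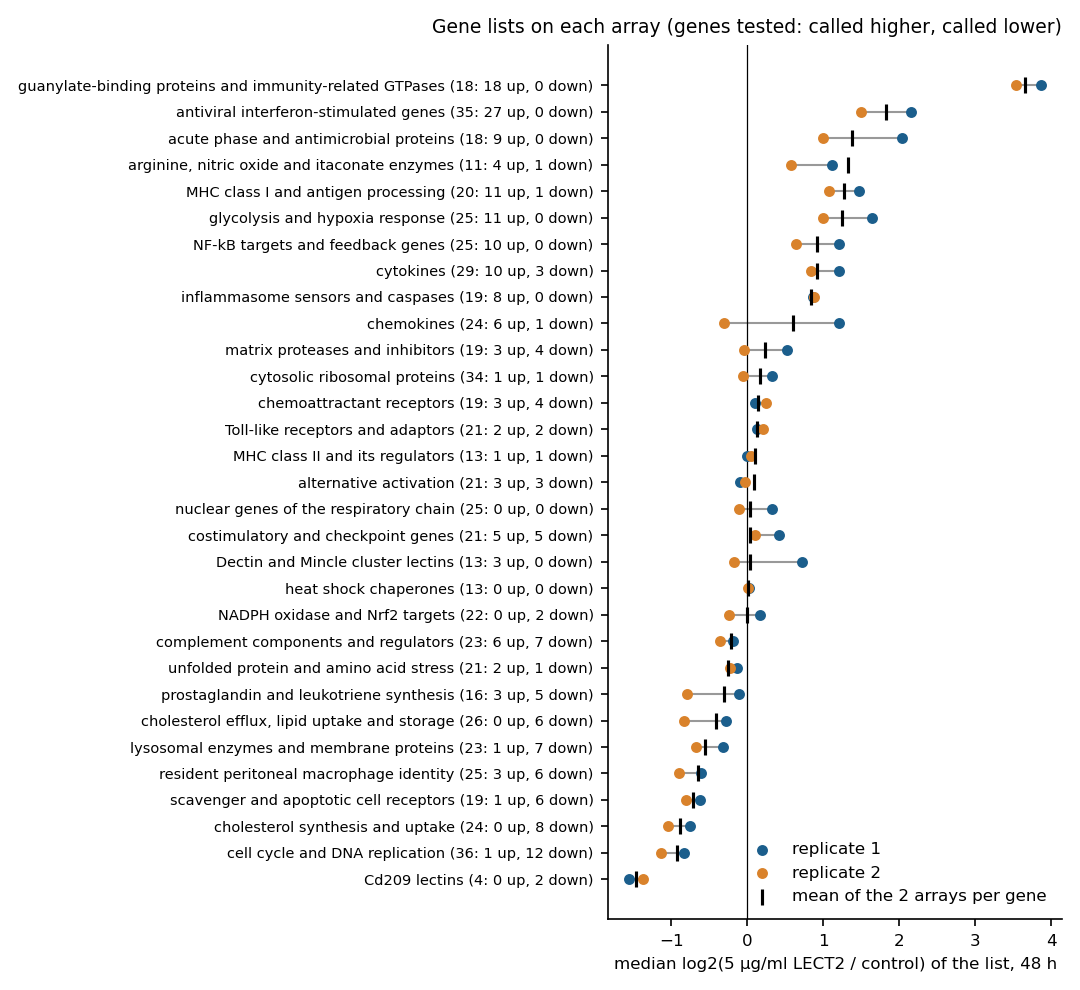
Median log2 ratio of 5 µg/ml LECT2 over control at 48 h for each gene list, on replicate 1 (blue), replicate 2 (orange) and for the mean of both arrays per gene (black bar), with the number of genes tested and called beside the name. The GTPases and antiviral genes lie at the top with medians of 3.65 and 1.83, the cell-cycle genes near the bottom with -0.92, and the chemokine medians lie on opposite sides of 0 on the 2 arrays.

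The gene Lect2 itself was not tested: its probe was above background on 1 of the 8 arrays.

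The response at 48 h was set against that to the same dose at 3.5 h, each relative to its own control. Neither 3.5 h column of the value table equalled a scanner file, and they correlated with their closest ones at 0.959 and 0.881 over probes, so how those values were made from the scans is not known. Under the link by values each slide held 1 time, so slide and time cannot be told apart. The difference was called for 2171 genes (8.31%), 1182 higher and 989 lower at 48 h, and 5730 genes (21.9%) were called at 3.5 h. Several inflammatory cytokines were lower at 48 h. Tnf gave 5.72 and 5.91 at 3.5 h and 1.05 and -0.06 at 48 h, a difference of -5.32 ± 0.51 (SE), adjusted p = 0.00815. Csf3, the granulocyte growth factor, went from 6.89 and 6.82 to 1.30 and 0.53, and Il23a, a subunit of interleukin-23, from 5.97 and 6.07 to 0.10 and -0.16, where both LECT2 channels were below background (adjusted p of the difference 0.00119). Il27 went from 4.83 and 5.07 to -0.68 and -0.69. The difference was called lower for 14 of 29 cytokines and 12 of 25 NF-kB genes, against 3.79% of all genes, and the medians of these lists were 3.38 and 2.69 at 3.5 h. Il1b and Il6 were not among the 14: Il1b was at 3.50 and 3.27 at 3.5 h and 5.48 and 3.93 at 48 h.

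Other genes were higher at 48 h than at 3.5 h. Il17a stood at 5.53 and 4.65 at 3.5 h and 9.33 and 7.12 at 48 h (adjusted p of the difference 0.0416), the 9.33 resting on a control signal not above background. In the GTPase list 5 of 18 were called higher than at 3.5 h, against 4.52% of all genes, with medians of 2.04 at 3.5 h and 3.65 at 48 h. Gbp8 went from 1.13 and -1.85 to 5.56 and 4.86. Tgfbi, a matrix protein, changed sign: it was -1.47 and -1.40 at 3.5 h and 5.29 and 3.66 at 48 h, a difference of 5.91 ± 0.87 (SE), adjusted p = 0.0164. Htr2b, a serotonin receptor of macrophages, changed sign as well, from -1.61 and -2.05 to 2.55 and 3.46. Cfb and C3 went from 1.41 and 1.27, and 1.23 and 0.50, to the values given above, and Bnip3 from -0.02 and -1.03 at 3.5 h, each with a called difference. Tmem86a, which hydrolyses lysoplasmalogens, was low only at 3.5 h, with -5.01 and -4.34 there and 0.03 and -0.16 at 48 h. Igf1, at -1.36 and -0.57 at 3.5 h, and C1qa, at a mean of -1.03, were lower still at 48 h, and Alox15 had opposite signs at 3.5 h, 0.12 and -0.79, and fell at 48 h, each with a called difference. Without either 48 h replicate limma called 2 differences instead of 2171.

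**Figure D5:**
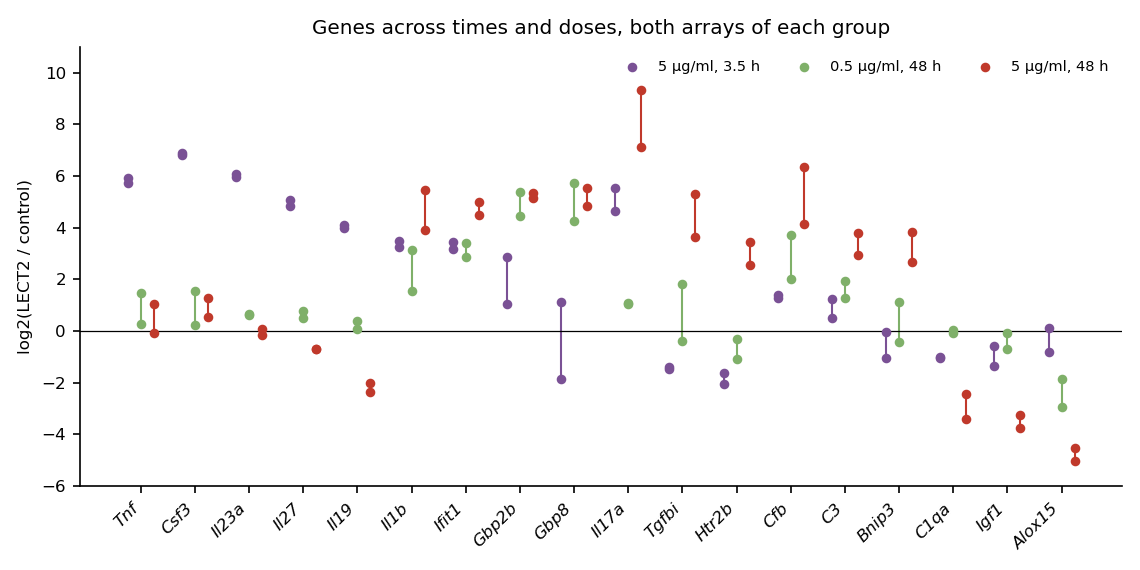
Log2 ratio of LECT2 over control for 18 genes on both arrays of each group: 5 µg/ml at 3.5 h (purple), 0.5 µg/ml at 48 h (green) and 5 µg/ml at 48 h (red), with a line joining the arrays. Tnf, Csf3, Il23a, Il27 and Il19 are high at 3.5 h and lie at or below 1.54 at 48 h, while Tgfbi and Htr2b are below 0 at 3.5 h and above 0 with the high dose at 48 h.

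The lower dose at 48 h gave 45 called genes (0.172%), 40 of them (0.153% of genes) higher, against 2931 with 5 µg/ml. The test of the difference between doses called none of the 26123 genes with limma; 2737 (10.5%) had an unadjusted p under 0.05, and normexp with loess called 9. So no gene was shown to differ between doses with the deposited values, and a missed threshold does not show that the doses acted alike: the median SE of a difference was 0.401. Deviations of replicate 1 from its group's mean correlated at 0.47 over genes between the doses at 48 h, and the test did not pair the replicates. With a replicate block over all 8 arrays it called 0 genes as well. The labels do not say whether arrays at 48 h share control RNA, so the values are given side by side. Ifit1 gave 3.43 and 2.88 with 0.5 µg/ml and 5.01 and 4.49 with 5 µg/ml, and Gbp2b gave 5.37 and 4.47, and 5.36 and 5.17. Il17a gave 1.05 and 1.08, and 9.33 and 7.12 (adjusted p of the difference 0.0926); the size of that difference was not measured, since the control of replicate 1 at the higher dose was not above background. Cd209a gave -3.40 and -1.98 with the lower dose, C1qa -0.08 and 0.06, Igf1 -0.68 and -0.06 and Bnip3 1.14 and -0.41. List medians with the lower dose were 2.87 for the GTPases, 1.45 for the antiviral genes, 0.28 for glycolysis and -0.27 for cholesterol synthesis, against 3.65, 1.83, 1.25 and -0.89 with the higher.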

How the data were processed

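RNA of mouse peritoneal macrophages was measured on 8 two-colour Agilent arrays. Agilent Feature Extraction 10.7.3.1 extracted the spots, per the file headers and the submitters' processing notes, and the deposited scanner files hold the processed intensity of each spot, background-subtracted and dye-normalized, with flags. Their log10 ratio, as deposited, was made by that software from the processed intensities and was not used further. The deposited value table holds log2 ratios of control (Cy5) over LECT2 (Cy3); its sign was turned, and no further centring was applied. Flags, signals and bounds come from the scanner files, each linked to a single column so that the correlations summed highest. This group's columns matched exactly. The column of 0.5 µg/ml at 3.5 h replicate 1 was left with a file at r = 0.217, though another file correlated with it at 0.522. Its flags entered the filter on dim probes.

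Of 39428 probes, 26405 had a symbol through RefSeq (GRCm38.p6). The filter kept 31587 probes that 2 or more of the 8 arrays flagged as well above background in either channel, and the brightest stood for its gene, which left 26123 genes. limma 3.58.1 in R 4.3.3 fitted 1 mean per group over 8 arrays (4 residual degrees of freedom), with Benjamini-Hochberg adjustment over all 26123 genes at 0.05. With 2 arrays per group, their number limits the precision: the median SE of an effect was 0.283. The fit was tested on simulated data with independent noise of the fitted spread. Those data held no dye bias, normalization shift or effect shared by a replicate, so the test cannot speak to them.

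"At least N-fold" compares, on normalized channel signals, the bright group's mean with the lowest signal well above background, or the dim probe's own where higher. It is open to dye bias, since no dyes were swapped. Probes of a gene disagreed in sign for 97 of 547 called genes with another kept probe.

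Named genes were the 15 largest calls in each direction, the 8 largest called differences between times, members of the lists, and Lect2, Cd209a, Tnf, Il1b, Il6, Arg1 and Nos2. The 15 had to have a symbol, the same sign on both arrays, and a channel well above background on both arrays. The members and lists were chosen with earlier results of these data known. Other normalizations, filters, probe rules, sample subsets and a replicate block were tried. A few list members are counted but not reported here by name. The low dose at 3.5 h was used only for the spread. Red blood cell markers (7 tested) had no call.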

Additional observations from a re-analysis of the deposited data

Results flagged for a closer look

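The response to 5 µg/ml LECT2 differed between 48 h and 3.5 h for 2171 genes by limma's test of the difference itself, and the named genes among them are listed with that difference on the log2 scale (48 h minus 3.5 h). Alox15, Bnc1, Cd209b, Ifnb1, Il19, Il23a, Islr and Slc9a9 were below background in both LECT2 channels at 48 h, and Iltifb in both controls. For these genes the difference is a fitted value and its size was not measured. For Cd209a, Gbp8 and Il17a the same holds of replicate 1 at 48 h. Neither 3.5 h column equalled a scanner file, and slide and time cannot be told apart under the link by values.

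The difference was lower at 48 h for Il19 (-6.22), Il23a (-6.05), Csf3 (-5.94), Il27 (-5.64), Tnf (-5.32), Nfkbiz (-3.28), Ptgs2 (-2.91), Ifnb1 (-2.59), Tgfb1 (-2.33) and Isg15 (-2.20), which signal in or respond to inflammation. Among surface, transport and secreted proteins it was lower for Slc9a9 (-3.88), Cd209a (-3.24), Cd209b (-2.25), Tmem176a (-3.09), Itgax (-2.35), Plaur (-3.71), Islr (-3.31), Pdgfra (-2.10), Igf1 (-2.52), Gas6 (-1.60), C1qa (-1.90) and C1qc (-1.91). Intracellular proteins with a lower value at 48 h were the lipoxygenase Alox15 (-4.42), Fscn1 (-3.68), Insig1 (-2.01), Bnc1 (-1.88), Calr (-1.33), Cenpa (-1.47) and Mcm5 (-1.55).

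It was higher at 48 h for the GTPases Gbp8 (5.57), Gbp6 (3.67), Gbp2b (3.32) and Gbp2 (2.25), for Ifit1 (1.42) and Psmb8 (1.69), and for the secreted proteins Tgfbi (5.91), Cxcl13 (4.19), Cfb (3.90), C3 (2.50), C1ra (2.31), Iltifb (3.40), Il17a (3.13) and Prg4 (3.23). Values were also higher for Htr2b (4.83), Tmem86a (4.61), Bnip3 (3.76), Egln3 (3.16), Acsl1 (2.80), Rpl5 (2.02) and Trib3 (1.87). Ifit1 and Isg15, both antiviral interferon-stimulated genes, thus differed between the times in opposite directions. Groups of 2 arrays are too small for a search for outlying samples.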

How the results depend on the processing

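With 2 arrays, no dye swap and a conflict between columns and files, both the counts and the directions are uncertain. The count of 2931 called genes stayed within 1.5 times in 10 other settings (2272 to 3392), which include loess and the centred value table. It was 8622 with median centring, 1689 with no filter on dim probes, 1 with the scanner files as recorded, and 14 to 57 with 1 replicate left out. The labels do not say that a replicate number marks 1 of the 2 experiments, and the correlations of deviations between groups ran from -0.059 to 0.47 (48 h, both doses), so the samples were not treated as paired. With the replicate block the count was 3392, with 0 differences between doses and 2461 between times; Arg1 (adjusted p = 0.0111), Cd5l (0.0097) and Hif1a (0.0441) were then called, and Rps2 (0.0557) and Trib3 (0.0503) were not. A fit of the 4 arrays at 48 h with the replicate block, chosen after seeing the data, called 7594. The count of 0 between doses was 9 with loess and 0 to 0 with a replicate left out. The count of 2171 between times was 4617 with loess, 940 with no filter and 2 to 2 with a replicate left out. The cause of these shifts was not tested.

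Of the 160 called genes named here, 156 of 159 with a value were called with loess, 141 of 159 with median centring, 138 with no filter, 145 with only the 4 arrays at 48 h, 9 without replicate 1 and 22 without replicate 2. Log2 values of 28 of them moved by over 1.5 times with normexp and loess, all 28 toward 0, and 15 of the 28 were below background in 1 channel on both arrays. Those above it in both channels on both arrays were Ccr7 (0.74), Cd3g (0.71), Cyp27a1 (-1.43), Erap1 (1.61), Gzma (0.56), Nqo1 (-1.24), Pdcd1lg2 (0.90) and Tnfsf9 (1.62). Median centring moved 67 of the 160 by over 1.5 times and turned the sign of Gpm6a (0.06) alone among the called genes named; Aldoa, not called, was called lower with it (-0.81). Of 31 named genes called in neither setting, 19 changed sign with it, such as Bst2 (-0.28). With the files as recorded, which also went through normexp and loess, 0 of the 160 were called. The sign turned there for Il19 (1.61), Plaur (0.89), Tgfb1 (0.71), Unc93b1 (0.28), Clec10a (0.09), Trib3 (-0.11), Erap1 (-0.23), Egln3 (-0.35), Rpl5 (-0.37), Htr2b (-0.54), Bnip3 (-0.62) and Tgfbi (-0.83). Of 39 list medians, 12 changed sign with median centring, 8 with the files as recorded, and 7 and 4 without replicate 1 and 2. A slide block was not run, because slide equals time under the matched link and replicate under the recorded one. Signal over background limits the 437 called genes below background in both LECT2 channels and the 47 in both controls, whose folds are only bounded.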

Other observations

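Further gene groups in the deposited values with 5 µg/ml LECT2 at 48 h are given here. Of 34 cytosolic ribosomal protein genes 1 was called higher, Rpl5 at 1.56 and 0.83, and 1 lower, Rps2 at -0.66 and -1.49, with a median of 0.16. None of 25 nuclear respiratory-chain genes was called by limma, with a median of 0.04, and 4 were higher and 1 lower with normexp and loess. None of 13 heat shock chaperones was called by limma or with loess, with a median of 0.01. Median centring put these medians at -0.58, -0.60 and -0.62, against -0.24 for all genes, and called 9 of the 34, 9 of the 25 and 7 of the 13 lower, against 26.1% of all genes.

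Of 21 genes of unfolded protein and amino acid stress, 2 were higher, the translation-linked pseudokinase Trib3 at 1.21 and 1.12 and Ddit4, an inhibitor of mTORC1, at 2.64 and 1.51, and the chaperone partner Sdf2l1 was lower at -0.96 and -1.18. Median centring called 14 of the 21 lower and 1 higher, with a median of -0.91. Of 22 NADPH oxidase and Nrf2 target genes 2 (9.09%) were lower, against 6.92% of all genes, and 10 were lower under median centring. Nqo1, a quinone reductase, fell at -1.97 and -1.82 and the ferritin chain Ftl1 at -1.17 and -2.27. Hmox1, heme oxygenase, was not called at 0.78 and -0.51. Of 19 matrix proteases and inhibitors 3 (15.8%) were higher and 4 (21.1%) lower, against 4.3% and 6.92% of all genes. Under median centring 3 were higher and 6 lower, against 6.93% and 26.1% of all genes. The collagenase Mmp13 gave 3.29 and 1.97, while the macrophage elastase Mmp12 gave -2.70 and -3.33 and the urokinase receptor Plaur -2.43 and -2.14.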
